A study of Mus musculus with 14 samples.

Results

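The 10 genes described here code for the chaperones that cells make more of after heat or other stress to their proteins. They comprise the cytosolic Hsp70 machinery (Hspa1a, Hspa1b, Hspa8, Hsph1, Dnajb1, Dnaja1 and Bag3), the cytosolic chaperone Hsp90aa1 and the mitochondrial folding chamber (Hspd1 and Hspe1). They were chosen by gene symbol, and every probe set that the array's annotation assigned to 1 of them was used, which gave 13 of the 12422 non-control probe sets for 10 of the 8251 genes with a symbol of their own. Of these 13 probe sets, 9 (8 genes) were higher in pretumor than in GCP cells by the test used here (limma, adjusted p under 0.05), where 1.67% of all probe sets were higher. In tumor against GCP samples 5 of the 13 (5 genes) were higher, where 1.41% of all probe sets were higher. In tumor against pretumor samples 1 of the 13 (the dimmer Bag3 probe set) was lower, where 0.789% of all probe sets were lower. That call ended with intensities floored at 16, and the brighter Bag3 probe set did not pass (adjusted p = 0.219).

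The samples are 14 suspensions of mouse cerebellar cells, each hybridised to 1 expression array. The GCP samples (n = 4) are granule cell precursors, which divide and give rise to the granule neurons of the cerebellum, of patched+/- mice aged 7 days. The pretumor samples (n = 5) are preneoplastic cells of patched mutant mice aged 6 weeks. The tumor samples (n = 5) came from patched mutant mice aged 10 to 25 weeks with outward signs of medulloblastoma, a tumor of the cerebellum. The labels thus describe the patched mutation in all 3 groups, with no group of mice without it, and say that the heterozygous mice were maintained by breeding with 129X1/SvJ mice. patched (Ptch1) encodes the receptor that restrains hedgehog signalling, and mice with 1 intact copy can develop medulloblastoma. The cells were freed with papain and DNase, taken from the border of the 35% and 65% steps of a Percoll gradient and frozen without sorting, so each sample is a mixture. The stages also differ in age, and the effects of age and stage cannot be told apart. The titles only number the samples, and nothing states that they came from separate animals, so the p-values reflect the variation among these samples only, and part of it may be technical. In such mixtures fewer cells of a type and less RNA per cell cannot be told apart either.

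Hsp70 proteins bind stretches of unfolded protein and release them in a cycle driven by ATP. J-domain proteins bring clients to Hsp70 and start the ATP step, and nucleotide exchange factors such as Hsph1 and Bag3 end it. Hsp90 takes clients that are nearly folded, many of them kinases and steroid receptors. In mitochondria Hspd1 (Hsp60) forms a barrel in which imported proteins fold, and Hspe1 (Hsp10) is its lid. When unfolded protein accumulates, the transcription factor Hsf1 binds heat shock elements, which are alternating repeats of the 5-base unit nGAAn, and raises the transcription of these genes. Hspa8 is the form of Hsp70 that most cells make without stress, while Hspa1a and Hspa1b are the strongly induced forms.

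Heat shock element letters were searched for in the bases before the annotated starts of these genes, because the genes share that regulator. RefSeq promoter windows on the mouse build GRCm38.p6 were given for 8 of the 10 genes (all but Hspa8 and Hsp90aa1). The search covered the 250 bases before each start with 3 patterns. The head-to-head pair GAANNTTC and the tail-to-tail pair TTCNNGAA are their own reverse complements, and the run of 3 units was a head-to-head pair followed after NN by another GAA, or a tail-to-tail pair followed after NN by another TTC, so that each run also contains both pairs. Among 27025 genes with such windows, 7.73% held the head-to-head pair in at least 1 window, 8.11% the tail-to-tail pair and 0.514% a run of 3 units (6.69%, 7.17% and 0.466% of their 32851 windows). Of the 8 member genes, 5 held the head-to-head pair (Dnaja1, Hspa1a, Hspa1b, Hspd1 and Hspe1), 3 the tail-to-tail pair (Hspd1, Hspe1 and Hsph1) and 2 a run of 3 units (Hspd1 and Hspe1).

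Sequence is shown for 5 stretches, each written 5′ to 3′ on the strand of the named gene and ending at the base before its start. The capitals mark GAA and TTC units that lie in one of the patterns. The Hspe1 stretch, chr1:55087933-55088147 on the plus strand, is the 215 bases between the starts of Hspe1 and of its neighbour Hspd1 (1 of its annotated starts), which is read the other way, so it serves as the region before both genes. The Hspa1a stretch is chr17:34972157-34972306 on the minus strand, and the Hspa1b window matched that of Hspa1a at 247 of 250 bases. The Hsph1 stretch is chr5:149636337-149636486 on the minus strand. The Dnaja1 stretch, chr4:40722318-40722467 on the plus strand, belongs to a gene whose level passed no test, and the Bag3 stretch, chr7:128523433-128523582 on the plus strand, to the gene with the largest difference of the 10.
Hspe1: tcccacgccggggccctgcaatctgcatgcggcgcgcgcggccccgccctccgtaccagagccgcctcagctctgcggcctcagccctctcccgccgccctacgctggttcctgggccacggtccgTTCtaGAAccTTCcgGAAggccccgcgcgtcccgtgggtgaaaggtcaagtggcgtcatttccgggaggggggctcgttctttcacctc
Hspa1a: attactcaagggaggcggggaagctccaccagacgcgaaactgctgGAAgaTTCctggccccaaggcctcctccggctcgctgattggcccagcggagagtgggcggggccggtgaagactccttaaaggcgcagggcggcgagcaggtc
Hsph1: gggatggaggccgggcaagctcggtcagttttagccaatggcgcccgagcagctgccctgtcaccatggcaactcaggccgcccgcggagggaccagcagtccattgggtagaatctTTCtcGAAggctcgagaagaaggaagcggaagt
Dnaja1: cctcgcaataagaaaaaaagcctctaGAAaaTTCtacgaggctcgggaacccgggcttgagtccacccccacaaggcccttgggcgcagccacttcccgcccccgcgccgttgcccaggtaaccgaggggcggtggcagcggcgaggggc
Bag3: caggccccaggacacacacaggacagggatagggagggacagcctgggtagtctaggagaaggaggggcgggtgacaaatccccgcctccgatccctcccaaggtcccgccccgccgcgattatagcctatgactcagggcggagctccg
In the Hspe1 stretch 4 units in a row alternate, at 89 to 72 bases before the Hspe1 start, which is 144 to 127 bases before the Hspd1 start. The pair in the Hspa1a and Hspa1b windows lay at 104 to 97 bases before the start, that of Dnaja1 at 124 to 117 and that of Hsph1 at 33 to 26. The Bag3 and Dnajb1 windows held none of these letters. A match describes the letters in this window and is not a measured binding site. Of the 6 genes that held a pattern, Hspa1a, Hspa1b, Hsph1, Hspd1 and Hspe1 were called higher in pretumor against GCP samples and Dnaja1 was not. Both genes that held none, Bag3 and Dnajb1, were called higher as well.

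**Figure D1:**
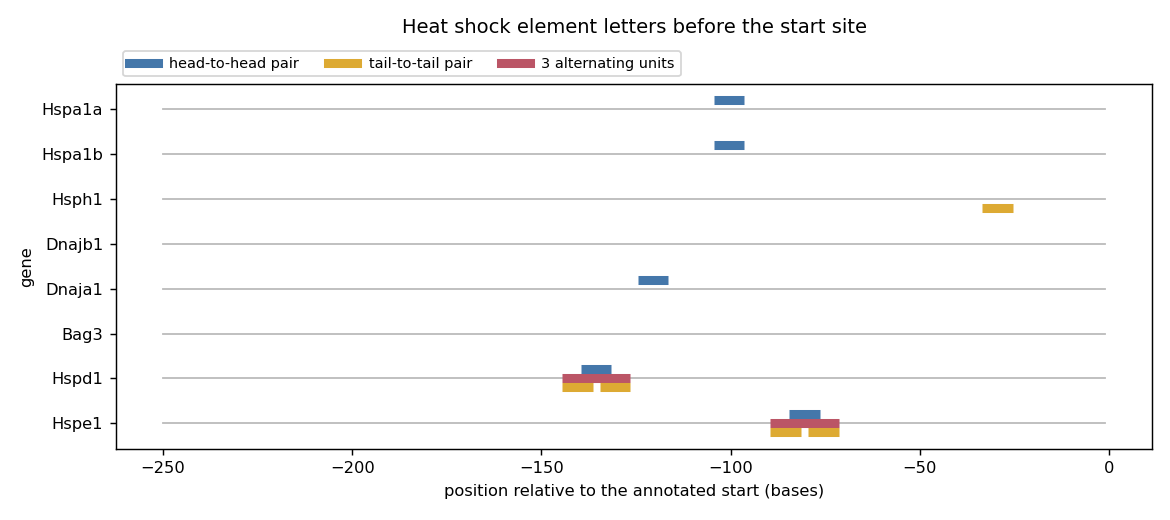
Positions of heat shock element letters in the 250 bases before the annotated start of the 8 member genes with a RefSeq window (1 annotated start a gene); the x axis is the position relative to the start in bases and each gene has a row. The 4 alternating units of Hspe1 and Hspd1 are 1 shared element seen from both starts, while Bag3 and Dnajb1 have no match.

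The values are the deposited intensities on the log2 scale, so a difference of 1 is a doubling, and levels of different probe sets cannot be set against each other. About 70.5% of all values lay below an intensity of 16 (log2 of 4), a low band taken to lie near background. The median intensity of the arrays ran from 4.12 to 4.39, and each array correlated with the others of its group at a mean r of 0.985 to 0.996. The GCP arrays fell into pairs, with r of 0.9977 for GCP 1 and 2 and 0.9975 for GCP 3 and 4 against 0.9939 to 0.9956 across the pairs, so the 4 may not be independent. A fit in which each pair was averaged is therefore given below, for each member gene whose call it ended and as counts for the other lists. Of 12 measured granule precursor markers, Atoh1 and Gli1 were in the low band on all arrays, so the labelled cell type was not checked by these 2 defining genes. The summed intensity of these 12 genes, each with its brightest probe set, was 17262 to 21186 in GCP, 10558 to 15146 in pretumor and 11217 to 17478 in tumor arrays. Of the 16 probe sets on this list, 2 were called lower in each later stage against GCP (0 in pretumor and 1 in tumor samples with the GCP pairs averaged, where 4 and 2 had an unadjusted p under 0.05). In the averaged fit the share of all probe sets with such a p was not counted.

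The inducible Hsp70 genes were highest in the pretumor samples. Hspa1a (probe set 93875_at) measured 11.13, 11.36, 11.00 and 9.66 in GCP arrays 1 to 4. It measured 12.53, 12.48, 12.16, 12.26 and 12.42 in pretumor arrays 1 to 5, and 11.85, 12.10, 11.82, 11.02 and 11.30 in tumor arrays 1 to 5. All pretumor arrays lay above all other arrays, and tumor 4 and 5 lay within the GCP range. Hspa1a rose 3.00-fold in pretumor against GCP samples (log2 difference 1.58, 95% interval 0.89 to 2.28, adjusted p = 0.0152). In tumor against GCP samples the difference was 0.83 (0.14 to 1.53, adjusted p = 0.209), and in tumor against pretumor samples it was -0.75 (-1.41 to -0.097, adjusted p = 0.351), and neither passed the test.

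Hspa1b (100946_at) is a nearly identical neighbouring copy of Hspa1a, and whether the 2 probe sets tell the transcripts apart was not tested. It measured 10.81, 10.76, 10.70 and 9.34 in GCP arrays, 12.01, 11.98, 11.47, 11.77 and 11.72 in pretumor arrays and 11.50, 11.54, 11.38, 10.73 and 10.27 in tumor arrays. The order of the groups was that of Hspa1a, with GCP 4 the lowest array for both genes and tumor 4 and 5 the lowest tumor arrays for both. Hspa1b rose 2.62-fold in pretumor against GCP samples (log2 difference 1.39, 95% interval 0.66 to 2.12, adjusted p = 0.0372). This call ended without any 1 of GCP 1 to 4 or of pretumor 1, 2, 4 and 5 (adjusted p = 0.0511 to 0.0918), with a floor at 16 (0.0892) and with the GCP pairs averaged (0.114). The tumor minus GCP difference was 0.68 (-0.051 to 1.41, adjusted p = 0.375) and the tumor minus pretumor difference -0.71 (-1.40 to -0.018, adjusted p = 0.423).

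Hspa8 (96564_at), the constitutive Hsp70, passed no test. Its values were 12.25, 12.38, 12.35 and 12.36 in GCP arrays, 12.28, 12.43, 12.69, 12.35 and 12.62 in pretumor arrays and 12.97, 12.43, 12.68, 12.68 and 12.47 in tumor arrays. All tumor arrays lay above all GCP arrays, by as little as the gap between 12.43 and 12.38, whereas pretumor and GCP arrays overlapped. The difference was 0.31 in tumor against GCP (0.068 to 0.55, adjusted p = 0.172) and 0.14 in pretumor against GCP (-0.10 to 0.38, adjusted p = 0.666).

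Hsph1 (98111_at, Hsp105), a large Hsp70 relative that acts as an exchange factor, measured 10.18, 10.25, 9.91 and 10.23 in GCP arrays. It measured 11.48, 11.93, 12.21, 12.07 and 11.90 in pretumor arrays and 11.49, 12.25, 11.66, 10.80 and 10.80 in tumor arrays. Every pretumor and every tumor array lay above every GCP array, and the tumor arrays spread widely, with tumor 2 the highest of all 14. Hsph1 rose 3.42-fold in pretumor against GCP samples (log2 difference 1.78, 95% interval 1.19 to 2.36, adjusted p = 0.00297). It rose 2.39-fold in tumor against GCP samples (1.26, 0.67 to 1.84, adjusted p = 0.0199). The tumor call ended without GCP 3 (adjusted p = 0.0662) or GCP 4 (adjusted p = 0.0515), with the compared groups fitted alone (adjusted p = 0.0849) and with the GCP pairs averaged (adjusted p = 0.17).

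Of the J-domain proteins, Dnajb1 passed the test in both later stages. Dnajb1 (96254_at), a heat-inducible partner of Hsp70, measured 7.34, 7.35, 7.52 and 6.82 in GCP arrays, 8.63, 8.09, 8.43, 8.08 and 8.24 in pretumor arrays and 8.49, 8.05, 8.19, 8.31 and 8.40 in tumor arrays. The GCP arrays lay below all others, and the pretumor and tumor arrays covered nearly the same range. Dnajb1 rose 2.05-fold in pretumor (log2 difference 1.04, 95% interval 0.70 to 1.37, adjusted p = 0.00263) and 2.04-fold in tumor samples (1.03, 0.69 to 1.36, adjusted p = 0.00244) against GCP. No alternative setting ended either call. The tumor minus pretumor difference was -0.0064 (-0.32 to 0.31). Dnaja1 (97261_at), another J-domain partner of Hsp70, measured 10.74, 10.69, 10.90 and 11.14 in GCP arrays, 10.60, 10.89, 11.47, 11.01 and 11.11 in pretumor arrays and 11.02, 11.09, 11.40, 10.86 and 10.83 in tumor arrays. Its 3 groups overlapped, and neither its pretumor difference of 0.15 (-0.21 to 0.52, adjusted p = 0.794) nor its tumor difference of 0.18 (-0.19 to 0.54, adjusted p = 0.743) against GCP passed the test.

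Bag3, which links Hsp70 and small heat shock proteins to the clearance of damaged protein by autophagy, differed most of the 10 genes. Its brighter probe set, 161980_f_at, measured 5.54, 5.92, 5.66 and 6.18 in GCP arrays, 8.11, 9.19, 9.66, 8.71 and 9.27 in pretumor arrays and 8.26, 8.33, 8.61, 7.17 and 6.99 in tumor arrays. The groups did not overlap between GCP and the later stages, and tumor 4 and 5 lay apart from the other tumor arrays, nearest to GCP. Bag3 rose 8.97-fold in pretumor against GCP samples (log2 difference 3.16, 95% interval 2.33 to 4.00, adjusted p = 0.000722). It rose 4.14-fold in tumor against GCP samples (2.05, 1.21 to 2.88, adjusted p = 0.00939), a call that ended with the GCP pairs averaged (adjusted p = 0.097). In pretumor against GCP its difference ranked 6 of 12422 from the highest, and in tumor against GCP 30. In the array's naming, an f marks probes that may match related sequences.

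The other Bag3 probe set, 96167_at, lay mostly in the low band, at 2.35, 2.24, 2.40 and 1.95 in GCP arrays, 3.57, 4.36, 3.90, 3.76 and 4.06 in pretumor arrays and 2.74, 2.86, 3.28, 2.77 and 2.62 in tumor arrays. The 3 groups did not overlap, with pretumor highest and GCP lowest. It was called higher in pretumor against GCP (log2 difference 1.69, adjusted p = 0.000223) and lower in tumor against pretumor samples (-1.08, adjusted p = 0.00624), and both calls ended with a floor at 16 (adjusted p = 1). Its tumor minus GCP difference of 0.62 did not pass (adjusted p = 0.0632), although it did without pretumor 2 (0.0409) or with no floor (0.0469). The brighter probe set had a tumor minus pretumor difference of -1.12 (-1.90 to -0.33) that did not pass either (adjusted p = 0.219), so the 2 probe sets had the same direction and different calls. Their median did pass (-1.10, adjusted p = 0.0489).

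Hsp90aa1 (95282_at), the stress-inducible cytosolic Hsp90, measured 11.71, 11.78, 11.74 and 11.68 in GCP arrays, 12.01, 12.39, 12.73, 12.36 and 12.24 in pretumor arrays and 12.28, 11.95, 12.48, 12.19 and 12.02 in tumor arrays. All arrays of both later stages lay above all GCP arrays. Hsp90aa1 rose 1.54-fold in pretumor against GCP samples (log2 difference 0.62, 95% interval 0.33 to 0.91, adjusted p = 0.0206). The call ended without GCP 1 (adjusted p = 0.0545), GCP 3 (0.0547), GCP 4 (0.0652) or pretumor 2 (0.0518), with a floor at 16 (0.0516) and with the GCP pairs averaged (0.178). The tumor minus GCP difference of 0.46 (0.17 to 0.75) did not pass (adjusted p = 0.0808), although it did without pretumor 3 (adjusted p = 0.0367). Its other probe set, 161869_i_at, was in the low band on all 14 arrays, between 1.30 and 1.42, and showed nothing about the gene.

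The mitochondrial pair was higher in both later stages. Hspd1 (93277_at) measured 11.56, 11.37, 11.43 and 11.62 in GCP arrays, 12.23, 12.40, 12.68, 12.42 and 12.32 in pretumor arrays and 12.43, 12.13, 12.37, 12.04 and 12.17 in tumor arrays. Hspe1 (92829_at) measured 9.76, 9.92, 10.17 and 10.06 in GCP arrays, 10.67, 10.85, 11.45, 10.77 and 10.78 in pretumor arrays and 10.88, 11.22, 10.57, 10.76 and 10.47 in tumor arrays. For both genes every later array lay above every GCP array, and pretumor 3 was the highest of all 14.

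Hspd1 rose 1.89-fold in pretumor (log2 difference 0.92, 95% interval 0.70 to 1.14, adjusted p = 0.000393) and 1.66-fold in tumor samples (0.73, 0.51 to 0.95, adjusted p = 0.00135) against GCP, and no alternative setting ended either call. Hspe1 rose 1.90-fold in pretumor (0.93, 0.54 to 1.32, adjusted p = 0.0116) and 1.75-fold in tumor samples (0.80, 0.42 to 1.19, adjusted p = 0.0235) against GCP. With the GCP pairs averaged both Hspe1 calls ended (adjusted p = 0.114 and 0.18), and the tumor call also ended without GCP 1 (0.0744), GCP 2 (0.0695), GCP 4 (0.0568) or tumor 1 (0.0547) and with a floor at 16 (0.0556). No test compared the 2 genes with each other. The other Hspd1 probe set, 161140_r_at, was in the low band on all arrays, between 1.93 and 2.45.

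**Figure D2:**
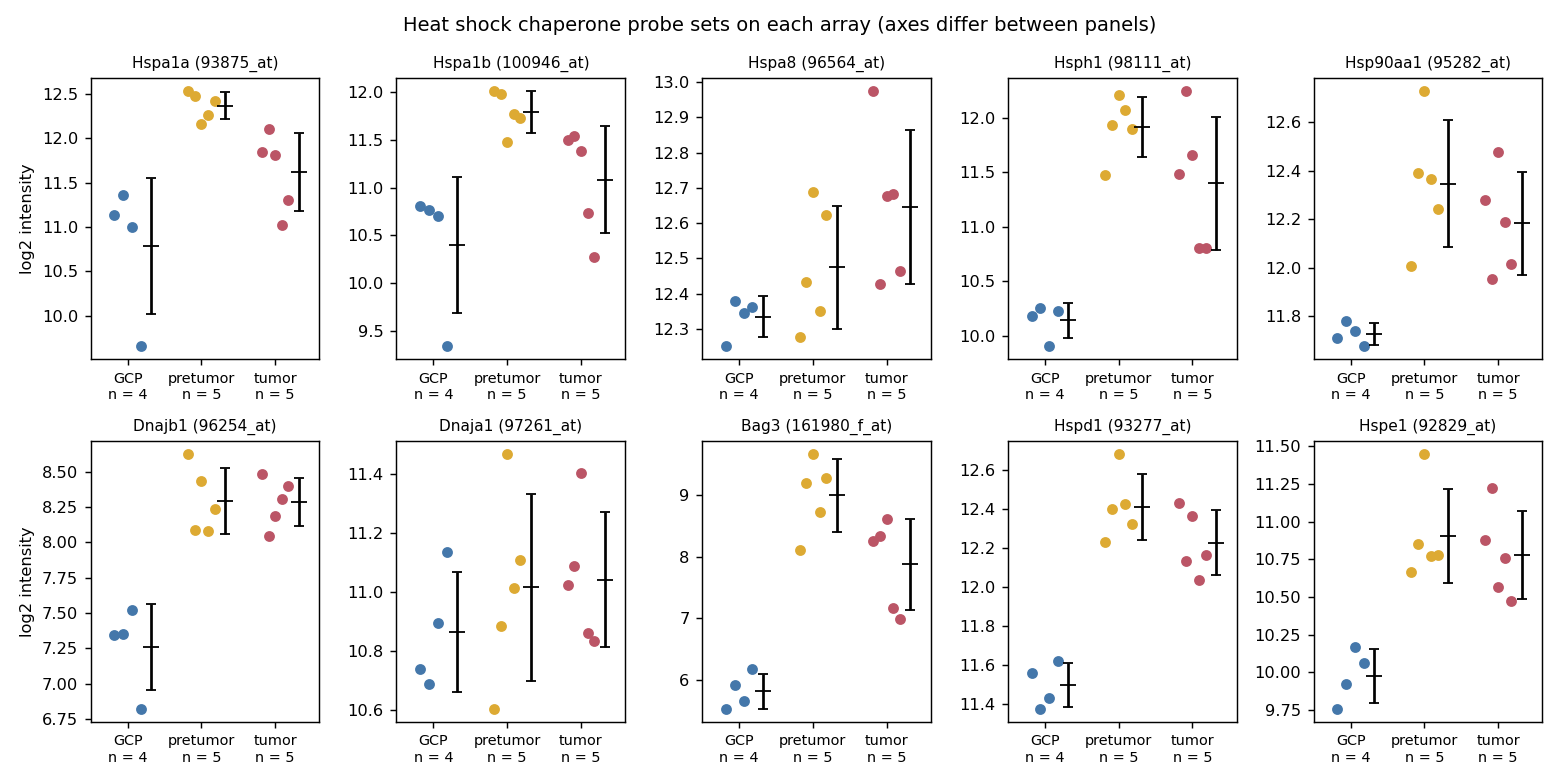
Log2 intensity on each array for the 10 genes, 1 panel a gene with its brightest probe set, in GCP (n = 4), pretumor (n = 5) and tumor (n = 5) samples; each point is an array, the bar beside it is the mean with its SD, and the y axes differ. The GCP points lie below all pretumor points in 8 panels and overlap them for Hspa8 and Dnaja1.

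In order of their pretumor minus GCP differences, Bag3 came first at 3.16, Hsph1, Hspa1a and Hspa1b lay between 1.39 and 1.78, and Dnajb1, Hspe1, Hspd1 and Hsp90aa1 lay between 0.62 and 1.04. Dnaja1 (0.15) and Hspa8 (0.14) did not pass. Neighbours in this order had overlapping 95% intervals, those of Bag3 (from 2.33) and Hsph1 (to 2.36) by the least. The median over the 13 probe sets was 0.93, and over all 12422 probe sets it was -0.0052. Of the 13, 9 had every pretumor array above every GCP array, where 4.65% of all probe sets did.

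In tumor against GCP samples the 5 genes that passed were Bag3, Hsph1, Dnajb1, Hspe1 and Hspd1, with differences from 0.73 to 2.05. The median over the 13 probe sets was 0.68, against 0.0024 over all probe sets. Of the 13, 9 had an unadjusted p under 0.05, where 15.4% of all probe sets did, and 8 had every tumor array above every GCP array, where 3.28% of all probe sets did. This comparison shares its GCP arrays with the one before, so the 2 sets of differences are not independent. With the GCP pairs averaged, 2 of the 13 were called (Dnajb1 and Hspd1).

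In tumor against pretumor samples the median over the 13 probe sets was -0.16, against 0.015 over all probe sets, and 11 of the 13 differences were below 0. Bag3 96167_at was called, and 4 of the 13 had an unadjusted p under 0.05 (Hspa1a, Hspa1b and both Bag3 probe sets), where 11.3% of all probe sets did. For Hspa1a and Bag3 96167_at every tumor array lay below every pretumor array, where 1.61% of all probe sets did. For Dnajb1, Dnaja1, Hspd1 and Hspe1 the intervals of the difference reached no further than -0.49 to 0.37.

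**Figure D3:**
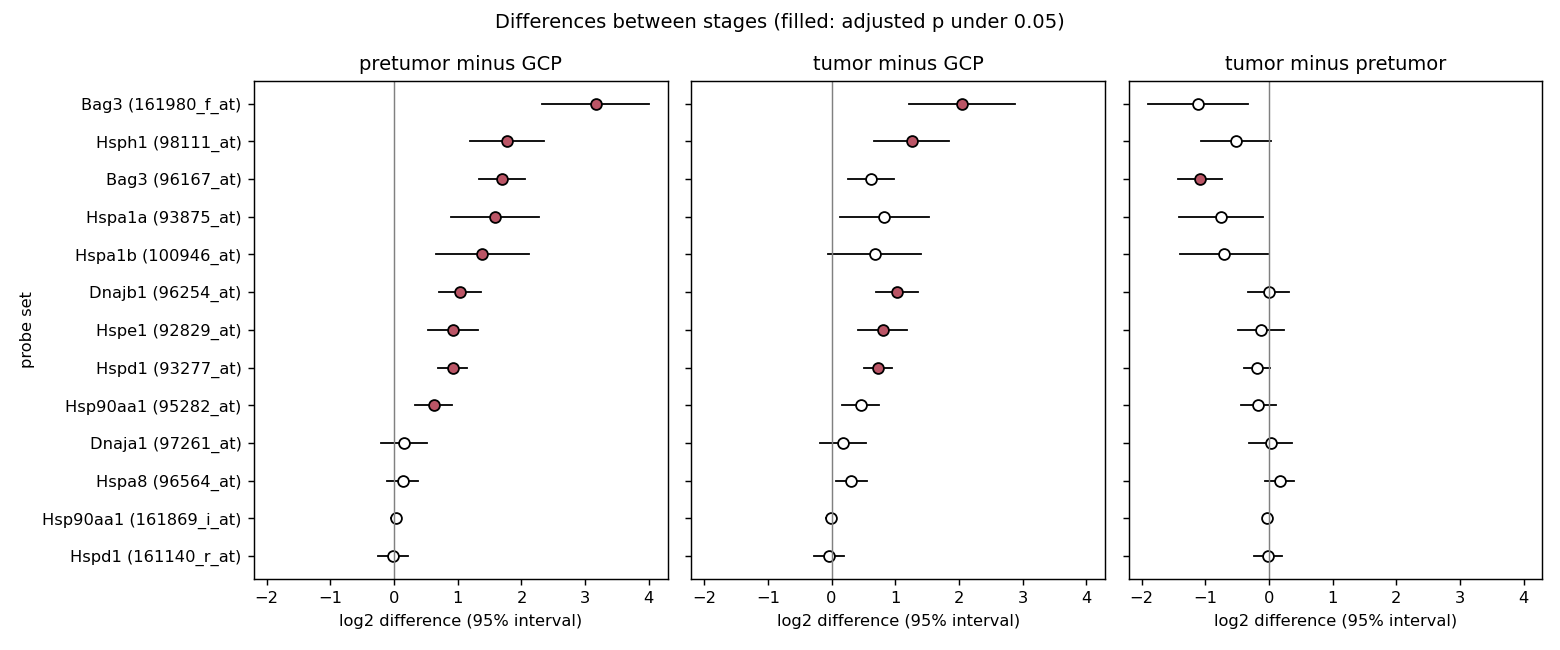
Log2 difference with its 95% interval for the 13 probe sets in the 3 comparisons between stages, with filled points for an adjusted p under 0.05. Of the 13 points, 9 are filled in the first panel, 5 in the second and 1 in the third.

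Summed over the 10 genes, each with its brightest probe set, the intensity was 17843 to 19930 in GCP, 30627 to 38915 in pretumor and 23653 to 32627 in tumor arrays. Among the pretumor arrays, pretumor 3 was highest for 7 of the 10 genes and pretumor 1 for the other 3 (Hspa1a, Hspa1b and Dnajb1), while pretumor 1 was lowest for the remaining 7. Among the tumor arrays, tumor 4 and 5 were highest for no gene and lowest for 2 and 5 genes. The mean of the 10 genes, each centred on its own mean over 14 arrays, was -0.14 in tumor 4 and -0.22 in tumor 5 but 0.31 to 0.32 in tumor 1, 2 and 3. Tumor 4 and 5 both lay within the range of the other tumor arrays for Dnajb1 (8.31 and 8.40), Hspa8 (12.68 and 12.47) and Hsp90aa1 (12.19 and 12.02). The log2 ratio of 3′ to 5′ actin signal, a sign of RNA integrity, was 3.99 and 3.93 in tumor 4 and 5 and 4.20 to 4.85 in tumor 1 to 3. The Gapdh ratio was 0.42 and 0.35 in tumor 4 and 5 and 0.15 to 0.39 in the other tumor arrays, and 0.0056 in pretumor 3 against 0.19 to 1.08 in the other pretumor arrays. In GCP arrays the Gapdh ratio was 0.46 and 0.56 in GCP 1 and 2 and -0.018 in both GCP 3 and 4. Its median was 0.79 in pretumor and 0.22 in GCP arrays, and pretumor 1, 2 and 4 (0.79 to 1.08) lay above every GCP array. The actin ratio was 4.13 to 4.87 in pretumor and 3.96 to 4.27 in GCP arrays. The part of these ratios in the differences was not tested.

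**Figure D4:**
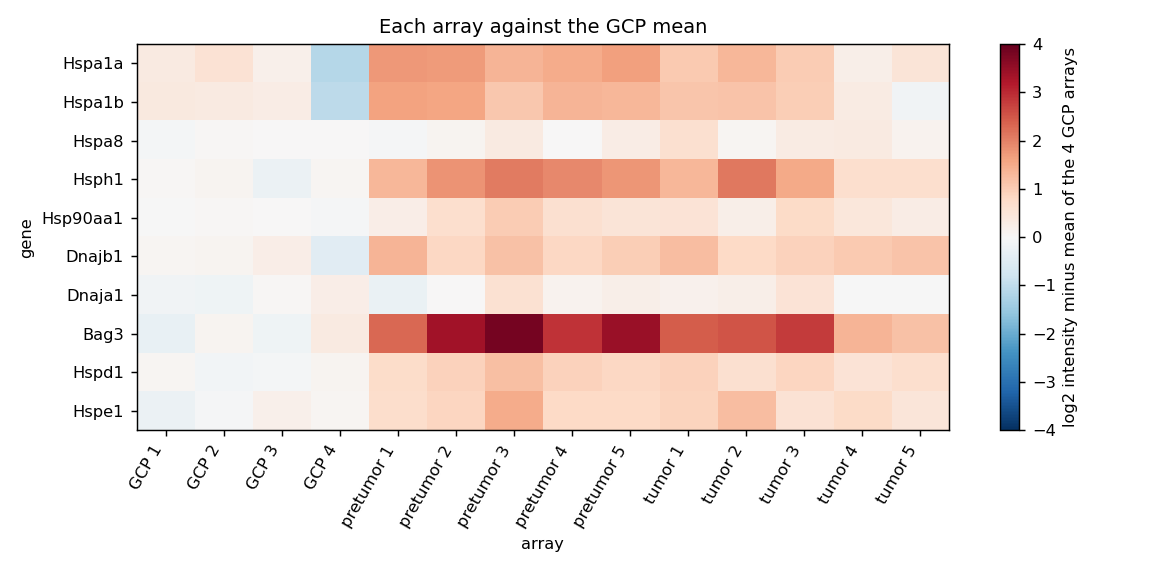
Log2 intensity of each of the 10 genes on each of the 14 arrays minus the mean of the 4 GCP arrays, as colour, with genes down the page and arrays along it. Bag3 is darkest in the pretumor columns, tumor 4 and 5 are both lower than tumor 1 to 3 for 5 genes (Hspa1a, Hspa1b, Hsph1, Dnaja1 and Bag3), and GCP 4 is low for Hspa1a and Hspa1b.

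The rest of the chaperone network was taken by family. Lists of 5 other chaperone families held 76 measured genes with 111 probe sets, 46 of which lay in the low band on all arrays. Of these 111, 3 were called higher and 0 lower in pretumor against GCP, 3 higher and 1 lower in tumor against GCP, and 0 higher and 1 lower in tumor against pretumor samples. The transcription factor Hsf1 and the constitutive Hsp90ab1 were on these lists and were not measured here. With the GCP pairs averaged, limma called 0 of the 111 against GCP at either later stage, with an unadjusted p under 0.05 for 10 in pretumor and 7 in tumor samples. The share of all probe sets with such a p was not counted for that fit.

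Among 29 other cytosolic chaperones and co-chaperones (43 probe sets, median pretumor minus GCP difference 0.023), 1 rose in pretumor samples. Fkbp4, an Hsp90 co-chaperone of steroid receptors, averaged 9.13 ± 0.12 in pretumor and 8.58 ± 0.20 in GCP samples with 92809_r_at (SD, n = 5 and 4, difference 0.55, adjusted p = 0.029). It averaged 9.18 ± 0.25 in tumor samples (difference from GCP 0.60, adjusted p = 0.0175), and its other probe set passed in neither comparison. The pretumor call ended without any 1 of GCP 1 to 4 or pretumor 2 to 5 (adjusted p = 0.0522 to 0.0875). It also ended with a floor at 16 (0.07), the replicate block (0.0623) and the GCP pairs averaged (0.147). The tumor call ended without GCP 3 (0.0526), with the compared groups alone (0.0836) and with the GCP pairs averaged (0.0986). Dnajb2, a neuronal J-domain protein, averaged 4.80 ± 0.35 in GCP, 5.77 ± 0.37 in pretumor and 3.49 ± 0.62 in tumor arrays. It fell by 2.27 in tumor against pretumor samples (adjusted p = 0.00261) and by 1.31 in tumor against GCP samples (adjusted p = 0.0303). The second call ended without GCP 1, 2 or 4 or tumor 1 or 4 (adjusted p = 0.0661 to 0.0944). It also ended with a floor at 16 (0.105), the compared groups alone (0.0995), the replicate block (0.0885) and the GCP pairs averaged (0.193).

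The chaperonin TRiC, which folds actin and tubulin, and its helper prefoldin held 13 measured genes with 18 probe sets, of which limma called 0 in each comparison. An unadjusted p under 0.05 was found for 1 in pretumor against GCP, 2 in tumor against GCP and 5 in tumor against pretumor samples. Over all probe sets the shares were 15.4%, 15.4% and 11.3%. Cct5 (93295_at), the member with the highest mean, averaged 11.26 ± 0.15 in GCP, 11.13 ± 0.13 in pretumor and 11.34 ± 0.11 in tumor arrays. Of 5 measured small heat shock genes, Hspb1, Cryaa and Cryab lay in the low band on all arrays. Cryab (162308_f_at) was called in pretumor against GCP (0.48, adjusted p = 0.0253) within that band, a call that ended with a floor at 16 (adjusted p = 1) and without any 1 of GCP 1, 2 and 4 or pretumor 1 to 4 (adjusted p = 0.0504 to 0.0793).

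Among 12 other mitochondrial chaperones and proteases, Hspa9, the mitochondrial Hsp70 that hands clients to Hspd1, averaged 10.89 ± 0.08 in tumor and 10.36 ± 0.19 in GCP samples (difference 0.54, adjusted p = 0.0152). The Hspa9 tumor call ended with the replicate block (adjusted p = 0.0895) and with the GCP pairs averaged (0.0733). The pretumor mean of Hspa9 was 10.77 ± 0.21, with a difference from GCP of 0.41 that did not pass (adjusted p = 0.0573) but did without pretumor 1 (0.0258). Among 17 chaperones and stress genes of the endoplasmic reticulum (25 probe sets, median pretumor minus GCP difference 0.088), Herpud1, a gene of the unfolded protein response, rose by 1.08 in pretumor against GCP samples (8.13 ± 0.38 and 7.06 ± 0.19, adjusted p = 0.0323). That call ended without any 1 of GCP 1 to 4 or pretumor 2 to 5 (adjusted p = 0.0649 to 0.0986). It also ended with a floor at 16 (0.0784) and with the GCP pairs averaged (0.228). Dnajb9 (96680_at), a J-domain protein of that compartment, was higher in tumor than in GCP samples (8.53 ± 0.43 and 7.75 ± 0.24, adjusted p = 0.0481), and this call ended when any 1 array other than tumor 1 and tumor 5 was left out (adjusted p = 0.0508 to 0.145). Its pretumor mean was 8.52 ± 0.19, and the difference from GCP of 0.77 did not pass (adjusted p = 0.0515), although it did under 6 of 23 alternatives (adjusted p = 0.00997 to 0.0372).

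**Figure D5:**
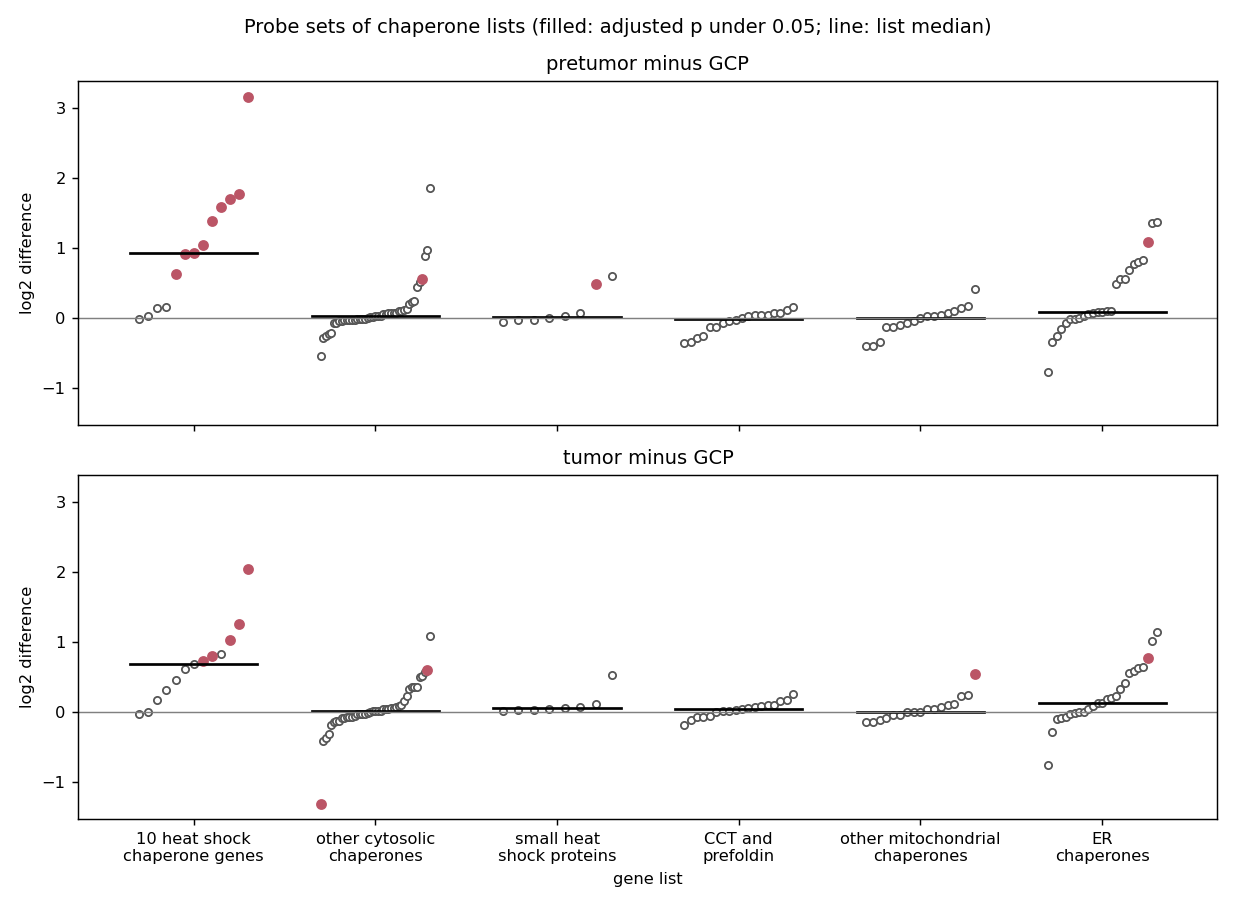
Log2 difference of every probe set of the 10 genes and of 5 other chaperone lists in pretumor minus GCP and tumor minus GCP, with filled points for an adjusted p under 0.05 and a line at each list's median. The median of the 10 genes is 0.93 and 0.68, and the other lists have medians between -0.016 and 0.13.

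Immediate early genes, which cells transcribe first after a stimulus, differed between these groups too. Of their 30 probe sets (23 genes), 7 were called higher and 0 lower in pretumor against GCP, and 8 higher and 0 lower in tumor against GCP samples (2 and 5 higher with the GCP pairs averaged). Their summed intensity, with 1 probe set a gene, was 11701 to 19857 in GCP, 20061 to 32429 in pretumor and 24872 to 39064 in tumor arrays. Its median was 37453 in tumor and 23225 in pretumor samples, with overlapping ranges, and that of the 10 chaperone genes was 31341 in tumor and 33835 in pretumor samples. In tumor against pretumor samples 1 of the 30 immediate early probe sets was called higher and 0 lower. Klf4 (99622_at), a transcription factor on this list, averaged 7.09 ± 0.61 in GCP, 9.13 ± 0.71 in pretumor and 10.63 ± 0.39 in tumor arrays, with adjusted p = 0.01 for pretumor and 0.000226 for tumor against GCP. With the GCP pairs averaged its pretumor call ended (adjusted p = 0.0648). The part of these genes' response in the chaperone differences was not tested.

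Markers of other cells in the suspension moved with the stages too. Of 18 probe sets of microglial markers 2 (Lyz2 and Ctss) were called higher in each later stage against GCP, and 7 of the 12 genes, Cx3cr1, Aif1 and Itgam among them, were in the low band on all arrays. Averaging the GCP pairs left 1 called at each stage, and the tumor call of Ctss ended under 13 of 23 alternatives (adjusted p = 0.0503 to 0.147). The summed intensity of the list was 149 to 378 in GCP, 807 to 1357 in pretumor and 631 to 1890 in tumor arrays. This sum, like those of the lists below, takes 1 probe set a gene. Oligodendrocyte markers had 3 of 19 probe sets higher in pretumor against GCP, 2 lower in tumor against GCP and 5 lower in tumor against pretumor samples, with summed intensities of 200.1 to 324 in GCP, 300 to 780 in pretumor and 139 to 220 in tumor arrays, and Mag, Mobp, Cnp, Sox10 and Ugt8a were in the low band throughout. Choroid plexus markers had 1 of 7 probe sets (Kl) higher in pretumor against GCP and 2 (Kl and Folr1) lower in tumor against pretumor samples. They summed to 626 to 3213 in GCP, 5149 to 14525 in pretumor and 21.6 to 1157 in tumor arrays, with Foxj1 and Aqp1 in the low band. Of the 5 measured genes, Kl reached at most 9.06 and Folr1 6.25 on the log2 scale in pretumor arrays. The pretumor sums thus came mostly from Ttr, which was not called. Astrocyte markers had 1 of 15 probe sets higher and 2 lower in pretumor against GCP, 7 lower in tumor against GCP and 2 lower in tumor against pretumor samples. They summed to 10572 to 14630 in GCP, 1696 to 6002 in pretumor and 1085 to 2897 in tumor arrays. Most of the GCP sum and of its fall came from 1 gene, Fabp7, which averaged 13.24 in GCP, 9.78 in pretumor and 9.40 in tumor arrays (log2). This sum is therefore not a measure of the whole list. Endothelial markers had 6 of 14 probe sets lower in pretumor and 8 lower in tumor against GCP samples and summed to 95.1 to 130 in GCP, 52.2 to 71.4 in pretumor and 36.1 to 50.9 in tumor samples, with 7 of 10 genes in the low band. When the GCP pairs were averaged, the calls against GCP were 1 oligodendrocyte, 1 choroid plexus and 3 astrocyte probe sets and 4 endothelial ones in pretumor samples, and in tumor samples 1 oligodendrocyte, 3 astrocyte and 7 endothelial ones. In tumor against pretumor samples 4 oligodendrocyte, 1 choroid plexus and 1 astrocyte probe sets were then called. The part of these cells in the chaperone differences was not tested.

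Genes outside the 10 with the most similar course were sought among 3026 genes with a mean intensity of 16 or more. Likeness was the mean absolute difference, over the 14 arrays, between a gene's centred log2 profile and the mean centred profile of the 10 genes. The closest were Trim59 (0.15), Hsd17b11 (0.16), Txndc16 (0.19), Wrnip1 (0.20) and Tom1l1 (0.21), against a median of 0.51 over the candidates. Of the 10 genes themselves, which enter that mean, Hspd1 lay closest to it at 0.15 and Bag3 furthest at 0.78. This is a description of 14 arrays and was not tested.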

How the data were processed

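The deposited table gives a linear intensity for each probe set on each array. The authors' summary and scaling method for these values was not stated in the sources used here. Array medians lay within 0.094 log2 units of each other, so no normalisation was added. The 66 control probe sets were left out, intensities were floored at 2.46 (the 10th percentile) and taken to log2. limma 3.58.1 in R 4.3.3 fitted 3 group means to each of 12422 probe sets over 14 arrays (11 residual degrees of freedom). P-values are two-sided with Benjamini-Hochberg adjustment across all probe sets, and calls are at an adjusted p under 0.05. Precision is limited by the number of arrays.

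Genes are named from the array's annotation, in which 10833 probe sets have 1 symbol, 396 several and 1193 none. In sums, profiles and counts of genes by array, a gene with several probe sets is represented by the one with the highest mean. Calls are given by probe set, and for Fkbp4 the called one is the dimmer. All members are named. From each other chaperone list up to 4 called genes, or the brightest where none was called, are named, from each other list at most 2, and the 5 genes of closest profile. Some further genes are named where they bear on the counts or sums of a list. Members and lists were chosen with earlier results of these data known. Alternatives covered the floor, a pseudocount of 16, quantile normalisation, a filter on low values, the compared groups alone, an intensity trend, a replicate block, each array left out and averaged GCP pairs. Promoter sequences are RefSeq's.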

Additional observations from a re-analysis of the deposited data

Results flagged for a closer look

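In 5 of 39 groups of 4 or 5 arrays 1 array lay further from the rest than Dixon's 95% limit allows, where chance alone gives about 1 in 20 groups. Hspa1b in GCP 4 was the lowest of its group at 9.34, with the next GCP array at 10.70. Hspe1 in pretumor 3 was the highest of its group at 11.45, with the next at 10.85. The other 3 lie in the low band, namely the dim probe set of Hsp90aa1 in GCP 1 at 1.41, and the dim probe set of Hspd1 in pretumor 3 at 2.45 and in tumor 2 at 2.32. Without GCP 4 the Hspa1b difference between pretumor and GCP samples was 1.03 (adjusted p = 0.0732), and without pretumor 3 no member call of pretumor against GCP ended.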

How the results depend on the processing

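Of 897 results for single member probe sets under the alternatives, 863 kept their side of the threshold, 30 lost a call and 4 gained one. Of the results called in either fit, 0 reversed direction. Direction was not compared where neither fit made a call, and some of those differences changed sign. Leaving out each array in turn gave 7 to 9 member probe sets called in pretumor minus GCP, 3 to 6 in tumor minus GCP and 1 in tumor minus pretumor. The other chaperone lists gave 0 to 5, 2 to 5 and 1 to 2, and all probe sets 331 to 624, 338 to 712 and 70 to 148. In pretumor minus GCP, where 9 member probe sets were called, 6 were with a floor at 16, 6 with the GCP pairs averaged and 8 with the filter on low values. With the GCP pairs averaged, tumor minus GCP had 2, and tumor minus pretumor had 0 with a floor at 16 and 0 with the filter on low values.

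The other chaperone lists had 5 calls in pretumor minus GCP with no floor, 1 with a floor at 16, 7 with quantile normalisation, 6 with the filter on low values, 6 with the compared groups alone and 0 with GCP pairs averaged. In tumor minus GCP they had 2 with a floor at 16, 1 with the groups alone, 2 with the replicate block and 0 with averaged pairs, and in tumor minus pretumor 2 with quantile normalisation. Over all probe sets, a floor at 16 left 194, 232 and 32 calls in the 3 comparisons and averaged pairs 168, 198 and 69. The groups alone left 335 in tumor minus GCP and 50 in tumor minus pretumor, and the replicate block 76 in tumor minus pretumor. The causes of these changes in count were not tested. The filter on low values uses fewer probe sets, and the groups alone and averaged pairs use fewer samples, while the other fits use all of both.

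The numbers in the titles did not pair the samples. Of 13 same-numbered pairs 4 correlated above 0.1 in their deviations from the group means (median r -0.041), as did 25 of 52 other pairs. Deviations were still related across groups, whatever the number. GCP 1 correlated with tumor 4 (0.45), tumor 5 (0.41) and pretumor 1 (0.38), and with pretumor 3 at -0.52 and tumor 2 at -0.49. GCP 3 correlated with pretumor 3 (0.51) and tumor 2 (0.43), and with tumor 4 at -0.37. What these arrays share was not tested. With the replicate block 9, 5 and 1 member probe sets were called in the 3 comparisons, as without it. Probe sets in the low band carry no usable level, which limits what the dim probe sets of Bag3, Hspd1 and Hsp90aa1 can show.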
